A study of Mus musculus with 6 samples.

Results

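The 39 genes described here encode the core machinery of autophagy outside the class III PI3-kinase complex, measured in mouse liver with and without a hepatocyte deletion of Atg14, a subunit of that complex. They were taken as a named list from a table of 56350 gene IDs, and each of the 39 matched 1 ID. The list runs from the ULK1 kinase complex, through lipid transfer and the conjugation enzymes, to the LC3 family and the fusion factors. Bulk polyA RNA was sequenced from 3 liver samples labelled Atg14 hepatocyte-specific knockout (HepKO) and 3 labelled wild-type (WT). The sources used here do not give strain, age, sex, diet or the Cre driver of the deletion. They also leave unsaid whether each sample is its own animal, and p-values then cover only sample-to-sample spread, which may be technical.

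Autophagy encloses cytoplasm in a double membrane and delivers it to the lysosome. The ULK1 kinase complex starts the process, the PI3-kinase complex that holds Atg14 marks the site with a phosphoinositide, WIPI proteins read that lipid, and ATG2 and ATG9 bring in further lipid. A pair of ubiquitin-like systems then attach LC3 and GABARAP proteins to the membrane, and the SNARE protein STX17 acts in fusion with the lysosome. In liver, autophagy turns over organelles, protein and lipid stores.

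Libraries held 33145684 to 48951937 counted reads. Atg14 itself had 5.66, 8.44 and 7.95 CPM (read counts scaled to a common library size) in HepKO replicates 1 to 3, against 20.9, 22.2 and 21.0 CPM in WT replicates 1 to 3, so each HepKO library lay below each WT library. HepKO replicate 1 stood apart by sex-linked genes. It had 523 CPM of Xist and 0.0516 CPM of Ddx3y, against 0.0675 to 0.49 CPM of Xist and 65.9 to 102 CPM of Ddx3y in the other 5 libraries. By these genes HepKO replicate 1 reads as female and the other 5 libraries as male, so sex is mixed in HepKO but not in WT. The main results are also given without HepKO replicate 1. Marker levels and calls use only the main scaling described below (TMM). They were not tested under library totals, which move all folds up. The 6 hepatocyte markers (Alb, Apoa1, Ttr, Tat, Cps1 and Hnf4a) summed to 38164 to 45305 CPM in HepKO and 86942 to 109334 CPM in WT, and 6 of 6 fell. Most of that sum was Alb (29465 to 36341 CPM in HepKO, 68770 to 90239 CPM in WT). The smallest log2 fold changes (HepKO over WT) were those of Hnf4a (-0.35) and Apoa1 (-0.55). The 6 macrophage markers summed to 286 to 451 CPM in HepKO and 94.8 to 196 CPM in WT, and 6 of 6 rose. Summed cholangiocyte markers were 147 to 558 CPM in HepKO and 43.9 to 61.6 CPM in WT (3 of 5 tested rose), stellate cell markers 372 to 407 and 196 to 307 CPM (2 of 6 rose), lymphocyte markers 35.1 to 50.8 and 8.14 to 19.1 CPM (1 of 6 rose), neutrophil markers 7.02 to 20.1 and 1.73 to 4.59 CPM (3 of 3 tested rose, while Ly6g had 6 counts in HepKO replicate 3 and 0 in the other 5 libraries), and endothelial markers 147 to 187 and 128 to 160.1 CPM (1 of 6 rose). Most of the cholangiocyte sum was Spp1 (134 to 515 CPM in HepKO, 35.1 to 54.4 CPM in WT). Epcam and Sox9 also rose. Krt19 (0.203 to 5.15 CPM in HepKO, 0.574 to 0.779 CPM in WT) and Krt7 (0.152 to 1.80 and 0.410 to 0.640 CPM) overlapped between groups and had no call. That sum therefore mainly follows Spp1 and does not by itself show a rise of cholangiocytes. Most of the lymphocyte sum was Ptprc (mean 40.6 CPM in HepKO and 10.28 CPM in WT), the 1 lymphocyte marker that rose. Cd3e, Cd3d, Cd79a, Ms4a1 and Nkg7 had no call, so the sum mainly follows Ptprc and does not by itself show a rise of lymphocytes. These uncalled markers had few reads (0 to 112 counts per library), and their log2 fold changes were all above 0 (0.43 to 2.15). For Cd3e and Nkg7 each HepKO library lay above each WT library. Whether these marker shifts take part in the results below was not tested, and in bulk tissue fewer cells of a type and less RNA per cell cannot be told apart.

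Of the 39 genes, 36 could be tested, and the called ones were mostly lower in HepKO. Calls came from edgeR's quasi-likelihood test over 16051 genes, with a threshold of 0.05 on the p adjusted by Benjamini-Hochberg (FDR). Under the main scaling, the trimmed mean of M-values (TMM), 17 members fell (47.2% of those tested, where 18.7% of all tested genes fell) and 3 rose (8.33%, where 19.5% of all tested genes rose). Among tested genes with a mean of at least 5 CPM, which 35 of the 36 members have, 27.4% fell and 19.0% rose. In 24 of the 36 members (66.7%) the HepKO and WT libraries were fully separate, 3 with HepKO higher and 21 with HepKO lower, and 53.5% of all tested genes were separate, 27.1% with HepKO higher and 26.4% with HepKO lower. The median log2 fold change (HepKO over WT) was -0.32 over the members and 0.01 over all tested genes.

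These directions rest in part on the scaling. When counts were scaled by library totals alone, the median log2 fold change of all tested genes shifted to 0.52 and that of the members to 0.19. Under library totals 15 members were higher (41.7%, where 46.3% of all genes were higher) and 4 lower (11.1%, where 5.85% were lower). Under both scalings Atg3, Atg5, Atg10 and Stx17 were lower, and Atg12, Map1lc3a and Plekhm1 were higher. For genes that rose this adds no check, as library totals move all folds up. Each of the 3125 genes higher under TMM was also higher under library totals. Of the 3006 genes lower under TMM, 939 were lower under both (5.85% of all tested genes). Another 13 members fell under TMM and had no call under library totals, 12 had no call under TMM and were higher under library totals, and 0 members were called in opposite directions. Without HepKO replicate 1, 15 members fell and 3 rose under TMM, where 17.5% of all genes tested in that fit fell and 16.3% rose. Calls in either direction that held without any 1 of the 6 libraries numbered 11, those of Rb1cc1, Atg101, Wdr45b, Atg2b, Atg3, Atg4d, Atg5, Atg10, Map1lc3a, Gabarapl1 and Stx17. How many of all tested genes held in the same way was not computed, so this number has no background to read it against. In the single fits 26.1% to 33.9% of all tested genes were called.

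**Figure D1:**
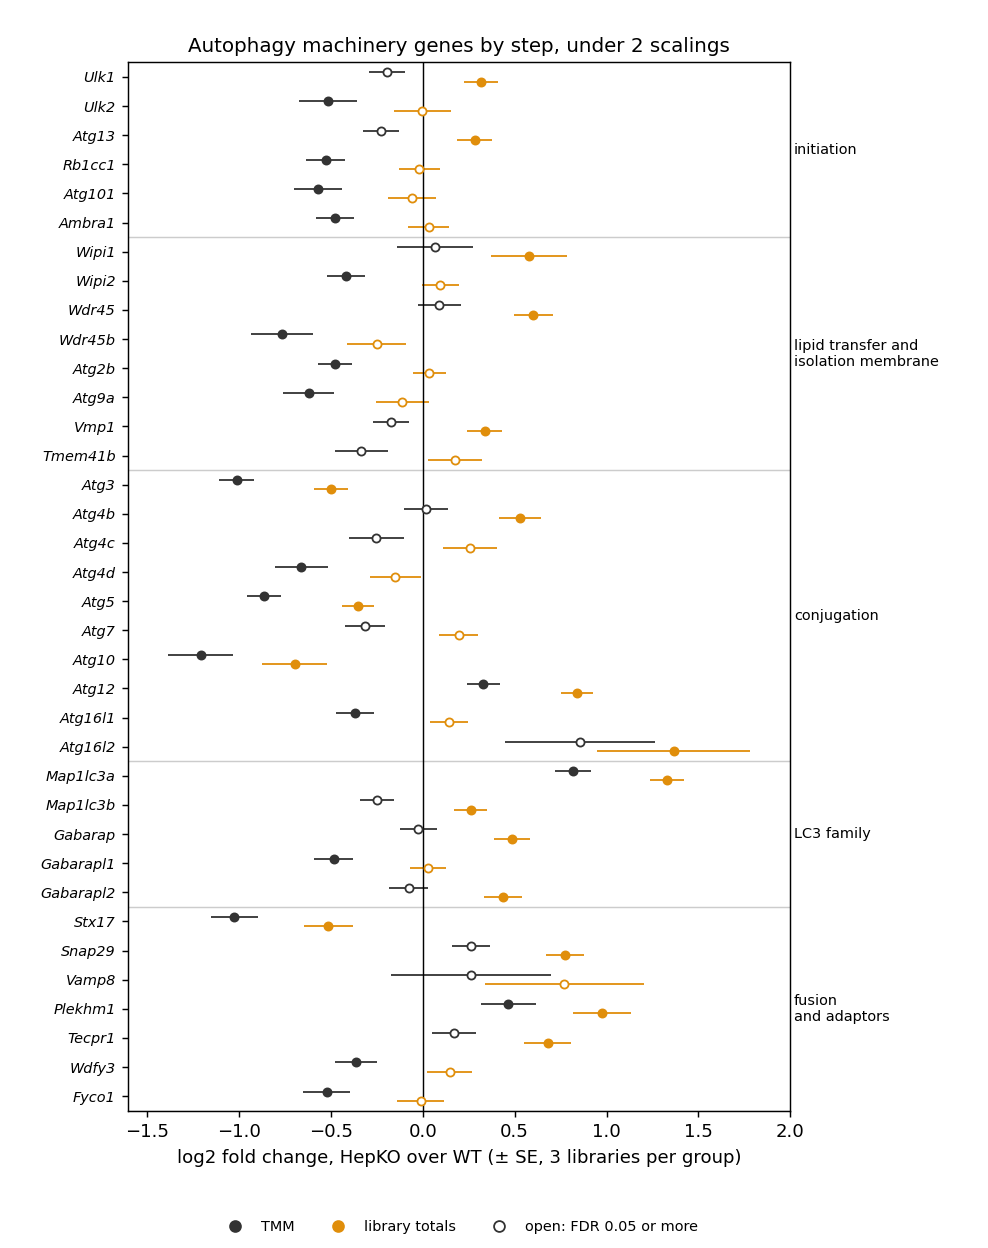
Log2 fold change (HepKO over WT, ± SE, 3 libraries per group) of the 36 tested members by step, under TMM (black) and library totals (orange), with filled points at an FDR under 0.05. Library totals move each gene to the right, and Atg3, Atg5, Atg10 and Stx17 stay to the left of 0 while Atg12, Map1lc3a and Plekhm1 stay to the right.

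The promoters of the members that fell under both scalings are shown because the factors of the TFEB family, known activators of autophagy and lysosome genes, bind the letters CACGTG, and because the 4 genes differ in holding them. The bases upstream of the RefSeq start are printed 5′ to 3′ on the strand of the gene (RefSeq, GRCm38.p6), without bases that GENCODE M21 gives to an exon, and CACGTG is in capitals. Atg3 (chr16:45158707-45158784, plus strand) has 2 copies, 94 and 71 bases before the start, and the second lies within the longer TFEB-family element TCACGTGA. Atg5 (chr10:44268089-44268338, plus strand) has 1 copy, 14 bases before the start. Atg10 (chr13:91223988-91224237, minus strand) and Stx17 (chr4:48124669-48124914, plus strand) have none in the bases shown. The lengths shown differ. Atg3 has 78 bases, with 172 exon bases left out, while Atg5 and Atg10 have 250 and Stx17 has 246.
Atg3: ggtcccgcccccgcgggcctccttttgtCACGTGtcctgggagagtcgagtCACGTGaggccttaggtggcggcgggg
Atg5: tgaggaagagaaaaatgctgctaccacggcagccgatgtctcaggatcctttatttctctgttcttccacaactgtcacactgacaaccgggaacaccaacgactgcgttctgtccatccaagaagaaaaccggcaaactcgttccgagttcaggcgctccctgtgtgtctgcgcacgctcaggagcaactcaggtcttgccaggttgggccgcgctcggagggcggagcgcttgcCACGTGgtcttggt
Atg10: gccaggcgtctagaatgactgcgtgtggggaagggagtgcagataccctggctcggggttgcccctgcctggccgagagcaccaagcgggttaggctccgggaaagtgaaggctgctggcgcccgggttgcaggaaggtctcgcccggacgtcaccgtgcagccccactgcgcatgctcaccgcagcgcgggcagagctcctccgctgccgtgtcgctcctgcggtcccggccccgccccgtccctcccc
Stx17: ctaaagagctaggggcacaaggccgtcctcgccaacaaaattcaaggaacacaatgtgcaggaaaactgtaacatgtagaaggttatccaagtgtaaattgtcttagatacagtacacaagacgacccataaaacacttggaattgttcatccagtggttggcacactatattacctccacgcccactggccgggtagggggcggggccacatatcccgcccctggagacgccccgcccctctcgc

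The table of promoters, which spans 250 bases before to 50 after each RefSeq start (more than 1 start for some genes), held 32 of the 39 members, and 28 of them have a start within 1000 bases of the gene's start in GENCODE M21. On either strand CACGTG was found in 3 members (9.38%; Atg3, Atg5 and Atg7) and in 8.09% of 27025 genes. The Atg7 match is at a start 27999 bases inside the gene, so CACGTG lay near the gene's start in 2 of the 28. TCACGTGA, which contains CACGTG, was found in 1 member (3.12%; Atg3) and in 1.12% of genes. The FOXO motif GTAAACA was found in 0 members and in 4.05% of genes. The NRF2 motif TGACNNNGC was found in 4 members (12.5%; Atg13, Map1lc3b, Ulk2 and Vmp1) and in 14.0% of genes. A match describes the letters of the window only.

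Of the 6 initiation genes, 4 fell (66.7%, where 18.7% of all tested genes fell) and 0 rose under TMM. Under library totals 0 fell and 2 rose (33.3%, where 46.3% of all tested genes rose). In TMM-scaled CPM the HepKO libraries of all 6 genes lay below the WT libraries, as they did for 26.4% of all tested genes. Rb1cc1, the FIP200 scaffold of the ULK1 complex, had 42.4, 49.3 and 52.1 CPM in the HepKO libraries and 68.0, 73.4 and 65.7 CPM in the WT libraries, given here and below in the order of replicates 1 to 3 (log2 fold change -0.53 ± 0.11, SE, edgeR FDR 0.00636). Atg101, which stabilises the Atg13 subunit, had 10.9, 13.4 and 12.0 CPM in HepKO and 19.8, 16.4 and 17.4 CPM in WT (-0.57 ± 0.13, FDR 0.0110). In both genes the highest HepKO library lay under the lowest WT library. Ambra1, a scaffold that links autophagy to ubiquitin ligases, had 23.9, 24.9 and 21.0 CPM in HepKO and 30.8, 34.5 and 32.1 CPM in WT (-0.48 ± 0.10, FDR 0.00893), a call that ended without WT replicate 2 (FDR 0.0517). Ulk2, a kinase paralog of Ulk1, had 53.6, 70.5 and 71.8 CPM in HepKO and 85.5, 83.0 and 111 CPM in WT (-0.51 ± 0.16, FDR 0.0341), and its call ended without WT replicates 2 or 3 or any single HepKO replicate (FDR 0.0506 to 0.131). Ulk1, the initiating kinase, had 44.5 to 49.7 CPM in HepKO and 50.9 to 59.0 CPM in WT (-0.19 ± 0.10, FDR 0.154), and Atg13 had 38.8 to 44.9 CPM in HepKO and 47.5 to 52.7 CPM in WT (-0.23 ± 0.10, FDR 0.101), neither called. Under library totals these last 2 genes were called higher (Ulk1 0.32, FDR 0.0222; Atg13 0.28, FDR 0.0372), while the 4 that fell under TMM lay between -0.06 and 0.03 with no call.

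Among the genes of lipid transfer and membrane growth, 4 of 8 tested fell under TMM (50%, where 18.7% of all tested genes fell) and 0 rose. Atg2b, a lipid transfer protein, was the most even, with 30.6, 31.2 and 31.2 CPM in HepKO and 42.3, 40.4 and 46.6 CPM in WT (log2 fold change -0.47 ± 0.09, edgeR FDR 0.00541). Atg9a, a lipid scramblase of the vesicles that seed the membrane, had 14.5, 17.6 and 18.6 CPM in HepKO and 22.2, 27.4 and 28.2 CPM in WT (-0.62 ± 0.14, FDR 0.0103), without a call when WT replicate 3 was left out (FDR 0.0538), and 31.8% of its exon bases are shared with a transcript annotated on the same strand. Both groups were separate in each of these genes. Wdr45b, also called WIPI3, had 23.8, 23.4 and 25.0 CPM in HepKO and 35.5, 34.3 and 52.9 CPM in WT, where replicate 3 stood above the rest (-0.76 ± 0.17, FDR 0.00946). Wipi2, the WIPI that recruits the LC3 conjugation complex, had 64.9, 76.9 and 74.0 CPM in HepKO and 97.0, 88.8 and 102 CPM in WT (-0.42 ± 0.10, FDR 0.0156), and its call ended without WT replicate 3 (FDR 0.0681). The other WIPI genes did not separate. Wipi1 had 20.5 to 29.2 CPM in HepKO and 19.7 to 32.0 CPM in WT, and X-linked Wdr45 (WIPI4) had 19.7 to 23.6 CPM in HepKO and 18.7 to 22.1 CPM in WT. A share of 24.7% of the exon bases of Wdr45 is also given to the same-strand gene Gm45208. The ER scramblases Vmp1 (115 to 129 CPM in HepKO, 129 to 148 CPM in WT) and Tmem41b (16.7 to 19.3 CPM in HepKO, 18.6 to 26.3 CPM in WT) overlapped between groups and were not called, except that Tmem41b was called lower without WT replicate 3 (FDR 0.0383). Under library totals none of the 8 was lower and Wipi1, Wdr45 and Vmp1 were higher (37.5%, where 46.3% of all tested genes were higher). Atg2a, the paralog of Atg2b, had 0 to 3 counts per library and was not measured.

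The conjugation enzymes held 3 of the 4 members that fell under both scalings, and 1 that rose. Of 10 tested, 5 fell (50%, where 18.7% of all tested genes fell) and 1 rose (10%, where 19.5% rose) under TMM. Under library totals 3 fell (30%, where 5.85% of all fell) and 3 rose (30%, where 46.3% rose). Atg3, the E2-like enzyme that passes LC3 to phosphatidylethanolamine, had 64.1, 56.5 and 56.0 CPM in HepKO and 114, 119 and 122 CPM in WT, 2.01-fold lower (edgeR FDR 2.94e-04). Atg5, which is joined to ATG12 in the conjugate that directs this step, had 44.3, 38.9 and 39.9 CPM in HepKO and 78.0, 71.2 and 74.6 CPM in WT, 1.82-fold lower (FDR 5.10e-04). Atg10, the E2-like enzyme that joins ATG12 to ATG5, had 4.01, 3.85 and 4.24 CPM in HepKO and 11.01, 8.49 and 8.45 CPM in WT, 2.31-fold lower (log2 fold change -1.21 ± 0.18, FDR 0.00159). The 3 genes were lower in 3 of 3 HepKO libraries with wide gaps between the groups, and their log2 fold changes without HepKO replicate 1 were -1.08 for Atg3, -0.93 for Atg5 and -1.21 for Atg10. Under library totals they were -0.50 (FDR 0.00311), -0.35 (FDR 0.0115) and -0.70 (FDR 0.0121).

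Atg12, the ubiquitin-like partner of Atg5, went the other way. It had 49.6, 46.6 and 52.9 CPM in HepKO and 39.0, 40.0 and 39.5 CPM in WT (log2 fold change 0.33 ± 0.09, edgeR FDR 0.0205). Each HepKO library lay above each WT library, but the call ended without WT replicate 1, WT replicate 3 or HepKO replicate 3 (FDR 0.0527 to 0.0808) and with no filter on low counts (FDR 0.0764). It was 0.32 on the log2 scale without HepKO replicate 1. Within a library, which needs no scaling, the ratio of Atg12 to Atg5 counts was 1.120, 1.20 and 1.33 in HepKO and 0.5002, 0.562 and 0.530 in WT. That ratio was chosen after the values were seen and has no test.

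Of the other conjugation genes, Atg4d and Atg16l1 fell under TMM. Atg4d, a protease that can release LC3 from membranes, had 14.7, 11.8 and 14.1 CPM in HepKO and 19.8, 19.5 and 25.0 CPM in WT (log2 fold change -0.66 ± 0.14, edgeR FDR 0.00873), with 19.3% of its exon bases on the strand opposite to exons of Kri1. Atg16l1, which carries the ATG12-ATG5 conjugate to the membrane, had 25.4, 24.7 and 26.5 CPM in HepKO and 29.9, 32.5 and 36.4 CPM in WT (-0.37 ± 0.10, FDR 0.0253), and lost its call without WT replicate 2, WT replicate 3, HepKO replicate 2 or HepKO replicate 3 (FDR 0.0509 to 0.121). Neither was called under library totals. Its paralog Atg16l2 spread widely within each group, with 9.69, 21.5 and 17.7 CPM in HepKO and 13.1, 9.49 and 4.45 CPM in WT (0.86 ± 0.41, FDR 0.133), and was called higher without a filter on low counts and under library totals (FDR 0.0256). Atg7, the E1-like enzyme of both ubiquitin-like systems, had 33.8, 31.4 and 36.9 CPM in HepKO and 38.6, 41.8 and 46.5 CPM in WT. Its groups did not overlap, and it was near the threshold (-0.31 ± 0.11, FDR 0.0527), called with limma-voom (FDR 0.0481) and without WT replicate 1 (FDR 0.0446). The LC3 proteases Atg4b (25.9 to 32.2 CPM in HepKO, 25.2 to 29.8 CPM in WT) and Atg4c (12.5 to 18.3 CPM in HepKO, 18.0 to 19.6 CPM in WT) overlapped between groups. Atg4a had 0 counts in 6 of 6 libraries, which allows up to 0.0516 to 0.0762 CPM in HepKO and 0.0835 to 0.101 CPM in WT (3 counts per library, counting error only), and was not measured. The annotation the reads were counted against is not known here. Whether reads of Atg4a, Atg2a or Epg5 went uncounted was therefore not tested, and their values are no measure of low expression. A copy named Atg4a-ps had 7 to 16 counts in HepKO and 6 to 12 in WT.

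**Figure D2:**
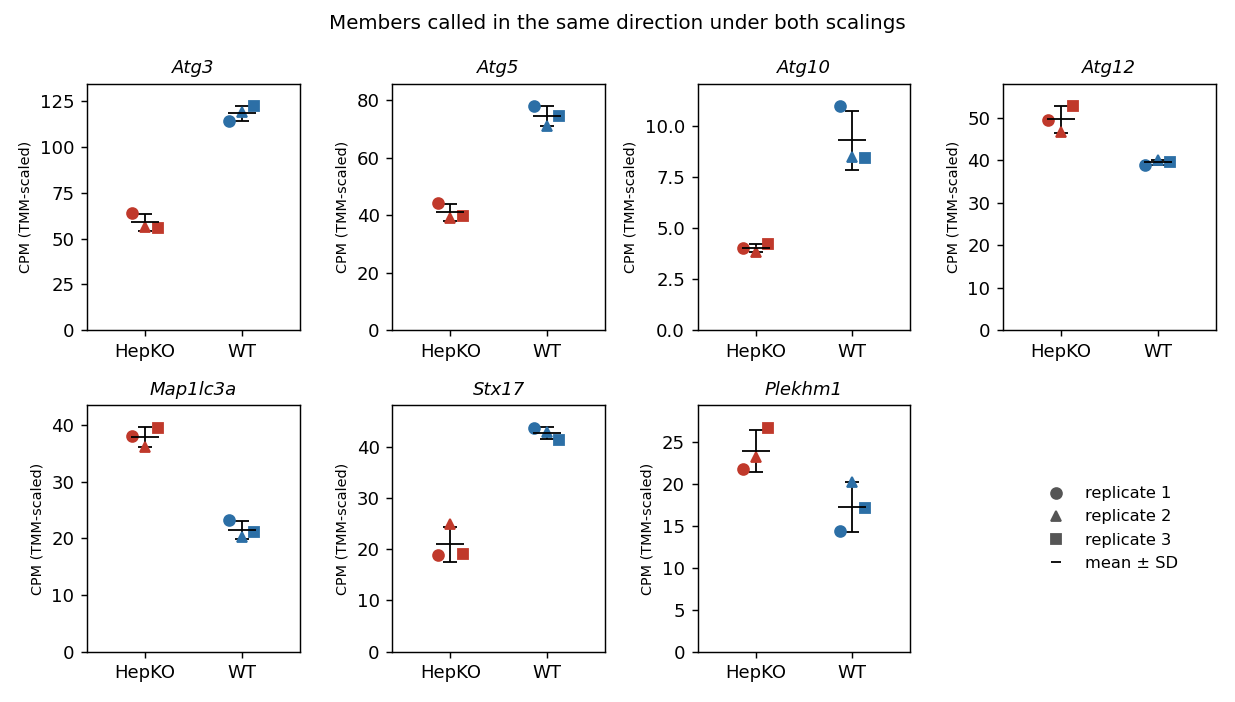
CPM (TMM-scaled) of the 7 members called in the same direction under both scalings, with HepKO at left and WT at right in each panel, 1 point per library and bars for the mean ± SD (n = 3 each). Atg3, Atg5, Atg10 and Stx17 are lower and Atg12, Map1lc3a and Plekhm1 higher in each HepKO library than in any WT library.

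In the LC3 family, whose proteins are the ones attached to the membrane, Map1lc3a rose and Gabarapl1 fell under TMM, the second without a call under library totals. Map1lc3a, an LC3 isoform, had 38.1, 36.1 and 39.5 CPM in HepKO and 23.2, 20.2 and 21.1 CPM in WT, 1.76-fold higher (edgeR FDR 7.24e-04), and 0.81 on the log2 scale without HepKO replicate 1. Gabarapl1, by reads the most abundant member of the list, had 345, 321 and 323 CPM in HepKO and 477, 416 and 490.3 CPM in WT (log2 fold change -0.48 ± 0.11, FDR 0.00936), with no call under library totals (0.03, FDR 0.830). For 28.3% of its exon bases a transcript is annotated on the opposite strand. Map1lc3b, the isoform most used as an autophagosome marker, had 99.5, 110 and 106 CPM in HepKO and 132, 119.7 and 123 CPM in WT, separate groups without a call (-0.25 ± 0.09, FDR 0.0649), and was called higher under library totals (0.26, FDR 0.0409). Gabarap had 234 to 276 CPM in HepKO and 256 to 260.3 CPM in WT (-0.02 ± 0.10, FDR 0.875), and Gabarapl2 had 50.5 to 59.4 CPM in HepKO and 52.3 to 60.3 CPM in WT (-0.08 ± 0.11, FDR 0.607). Under library totals both were called higher.

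Shares within a library do not depend on the scaling between libraries. As a share of the summed reads per kilobase of exon of the 5 genes, Gabarapl1 held 44.1%, 44.7% and 43.9% in HepKO and 54.2%, 51.3% and 54.9% in WT. Map1lc3a held 8.31%, 8.55% and 9.13% in HepKO and 4.49%, 4.23% and 4.03% in WT. Gabarap held 38.5%, 35.5% and 37.2% in HepKO and 31.7%, 35.0% and 31.5% in WT. For these 3 genes the groups did not overlap, while the shares of Map1lc3b (3.79% ± 0.347 in HepKO and 3.89% ± 0.176 in WT, SD, n = 3 each) and Gabarapl2 (6.23% ± 0.816 in HepKO and 5.67% ± 0.162 in WT) did. The shares are parts of a whole, so a smaller share of Gabarapl1 by itself makes the others larger. Gabarap itself had no call under TMM (log2 fold change -0.02) and was higher under library totals (0.49). The order of the levels depends on the length used. With the longest coding transcript in place of the exon union, Gabarap (39.5%) stood level with Gabarapl1 (38.2%) in HepKO, and Map1lc3b (8.43%) above Map1lc3a (7.18%), while in WT Gabarapl1 led with 46.5%. The groups stayed separate for the same 3 genes.

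**Figure D3:**
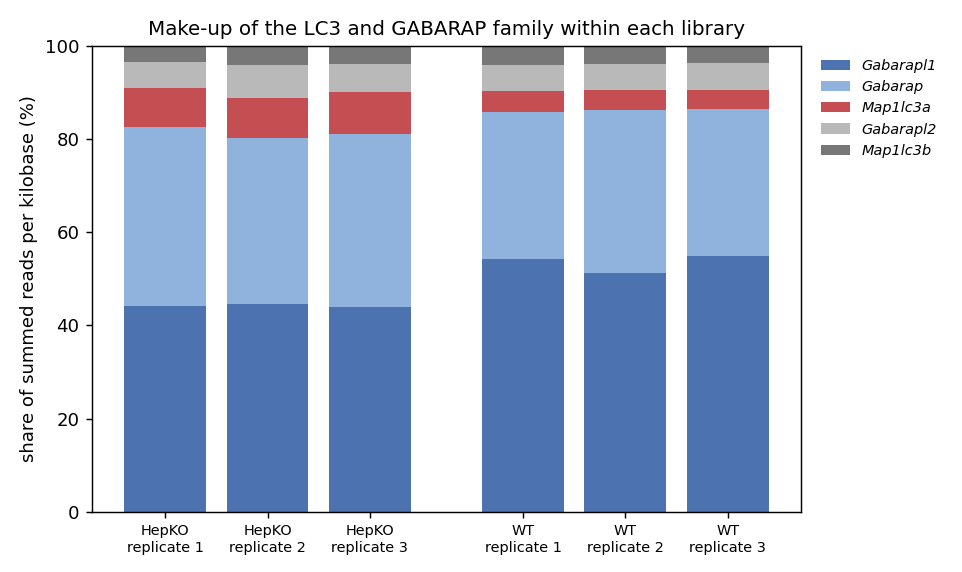
Share (%) of each LC3 and GABARAP gene in the summed reads per kilobase of the 5 genes, 1 bar per library, HepKO at left and WT at right. The Map1lc3a segment is 8.31% to 9.13% in HepKO and 4.03% to 4.49% in WT, and the Gabarapl1 segment is smaller in each HepKO library.

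Ratios of reads per kilobase within a library were compared for 10 pairs of related genes by exact 2-sided permutation over samples, where 3 against 3 allows no p below 0.1. The ratio of Map1lc3a to Map1lc3b was 2.43, 2.09 and 2.37 in HepKO and 1.11, 1.07 and 1.09 in WT, 2.10-fold higher. Atg3 to Atg7 was 4.19, 3.98 and 3.36 in HepKO and 6.54, 6.29 and 5.83 in WT, a ratio 0.616 times that of WT. Wdr45 to Wdr45b (1.25 ± 0.10 in HepKO and 0.713 ± 0.123 in WT, SD, n = 3 each) and Atg4b to Atg4d (1.85 ± 0.20 and 1.16 ± 0.15) were higher in HepKO, and Gabarapl1 to Gabarapl2 (7.17 ± 0.84 and 9.44 ± 0.28) was lower. In those 5 pairs the groups did not overlap, which gives the smallest p the exact permutation test allows, 0.1 (0.2 adjusted over the 10 pairs). The ratios of Ulk1 to Ulk2 (0.679 ± 0.074 and 0.547 ± 0.098), Wipi1 to Wipi2 (0.851 ± 0.093 and 0.614 ± 0.166), Atg16l2 to Atg16l1 (0.727 ± 0.279 and 0.322 ± 0.179), Gabarap to Gabarapl2 (6.04 ± 0.98 and 5.78 ± 0.45) and Vamp8 to Snap29 (0.0174 ± 0.0041 and 0.0176 ± 0.0050) overlapped between HepKO and WT (exact permutation p 0.2 to 1).

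**Figure D4:**
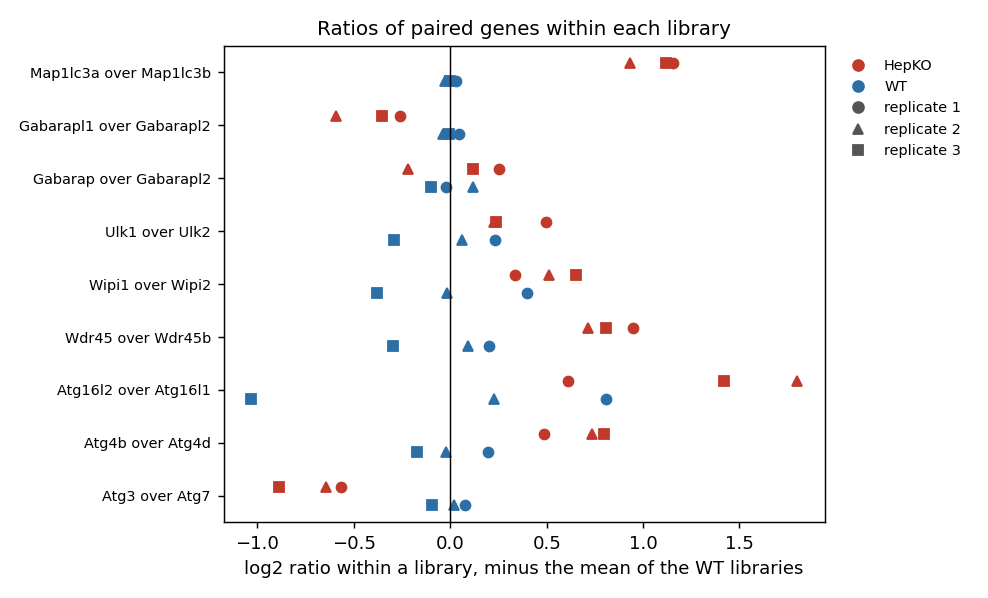
Log2 ratio of reads per kilobase of paired genes within each library, relative to the mean of the WT libraries, for HepKO (red, upper row of each pair) and WT (blue). Map1lc3a over Map1lc3b, Wdr45 over Wdr45b and Atg4b over Atg4d are higher and Gabarapl1 over Gabarapl2 and Atg3 over Atg7 lower in each HepKO library, and the other 4 pairs drawn overlap. The pair of Vamp8 and Snap29 is not drawn.

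The fusion factors and adaptors moved in both directions. Of 7 tested, 3 fell (42.9%, where 18.7% of all tested genes fell) and 1 rose (14.3%, where 19.5% rose) under TMM. Under library totals 1 fell (14.3%, where 5.85% of all fell) and 3 rose (42.9%, where 46.3% rose). Stx17, the autophagosomal SNARE, had 18.9, 24.9 and 19.0 CPM in HepKO and 43.7, 42.7 and 41.3 CPM in WT, 2.03-fold lower (log2 fold change -1.02 ± 0.13, edgeR FDR 8.63e-04), -0.96 without HepKO replicate 1 and -0.51 under library totals (FDR 0.0134). Its highest HepKO library lay far below its lowest WT library. Its SNARE partner Snap29 had 53.9, 61.5 and 60.0 CPM in HepKO and 54.0, 46.3 and 45.9 CPM in WT, overlapping groups without a call (0.26 ± 0.10, FDR 0.0817), and was called higher under library totals (0.77, FDR 7.41e-04). Vamp8, the lysosomal SNARE of the set, had 20 to 41 counts in HepKO and 13 to 23 in WT, under 1 CPM in each library, too few to show a difference of this size (0.26 ± 0.43, FDR 0.673).

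Plekhm1, an adaptor that links LC3 and RAB7 to the tethering complex, rose where Stx17 fell. It had 21.8, 23.1 and 26.7 CPM in HepKO and 14.3, 20.3 and 17.2 CPM in WT (log2 fold change 0.47 ± 0.15, edgeR FDR 0.0393). The groups were separate but the gap was small, and the call ended without WT replicates 1 or 3 or HepKO replicates 2 or 3 (FDR 0.0814 to 0.134). It was 0.52 on the log2 scale without HepKO replicate 1. Fyco1, an adaptor for transport of autophagosomes along microtubules, had 37.4, 50.2 and 48.1 CPM in HepKO and 61.3, 64.0 and 69.4 CPM in WT (-0.52 ± 0.13, FDR 0.0144), without a call when WT replicate 3 was left out (FDR 0.0649). Wdfy3, the aggregate adaptor ALFY, had 49.9, 60.5 and 60.5 CPM in HepKO and 71.5, 80.7 and 67.5 CPM in WT (-0.36 ± 0.12, FDR 0.0398), a call that ended without any 1 of the 6 libraries (FDR 0.0617 to 0.176). Neither Fyco1 nor Wdfy3 was called under library totals. Tecpr1, a tether of autophagosomes and lysosomes, had 13.8 to 16.5 CPM in HepKO and 12.7 to 14.5 CPM in WT (0.17 ± 0.12, FDR 0.298), and was called higher under library totals. Epg5, another tether, had 2, 4 and 2 counts in HepKO and 0 in each WT library, and was not measured.

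Partners of the fusion step outside the list were mostly uncalled under TMM. Of 9 tethering and fusion partners (the HOPS subunits Vps11, Vps16, Vps18, Vps33a, Vps39 and Vps41, with Rab7, Ykt6 and Lamp2), 1 fell (11.1%, where 18.7% of all tested genes fell) and 0 rose under TMM, and 0 fell and 8 rose (88.9%, where 46.3% of all rose) under library totals. The 1 that fell, the lysosomal membrane gene Lamp2, had 538, 541 and 582 CPM in HepKO and 872, 839.6 and 837 CPM in WT (log2 fold change -0.62 ± 0.10, edgeR FDR 0.00256). Of the 6 tested genes of the PI3-kinase complex, 3 fell (50%, where 18.7% of all tested genes fell) and 0 rose under TMM. With library totals 1 fell (16.7%, where 5.85% of all fell). Becn1 and Pik3c3 rose with library totals (2 genes, 33.3%, where 46.3% of all rose). Those that fell under TMM were Atg14 (log2 fold change -1.54, also lower under library totals), Uvrag (-0.53) and Rubcn (-0.38), and Uvrag and Rubcn had no call under library totals. The call of Rubcn also ended with DESeq2, RLE factors, either other filter, the replicate block and in 5 of the 6 fits that left out a library (FDR 0.0514 to 0.183 over these settings). Nrbf2 of that complex was not measured. Genes annotated on the opposite strand share 43.9% of the exon bases of Becn1 and 17.6% of those of Uvrag.

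Of 9 transcription factors with known roles at autophagy genes, 7 fell (77.8%, where 18.7% of all tested genes fell) and 1 rose (11.1%, where 19.5% rose) under TMM. Under library totals 3 fell (33.3%, where 5.85% of all fell) and 2 rose (22.2%, where 46.3% rose). Foxo1 had 48.4, 37.3 and 38.8 CPM in HepKO and 82.6, 96.8 and 130.1 CPM in WT (log2 fold change -1.31 ± 0.18, edgeR FDR 0.00129), lower under both scalings. Tfe3 had 34.0, 29.8 and 29.6 CPM in HepKO and 19.0, 18.9 and 16.6 CPM in WT (0.78 ± 0.11, FDR 0.00129), higher under both. Its relative Tfeb had 3.05, 3.68 and 3.27 CPM in HepKO and 5.03, 5.18 and 5.21 CPM in WT (-0.63 ± 0.19, FDR 0.0325), with no call under library totals, nor when any 1 WT replicate was left out, nor without HepKO replicate 1 or 3 (FDR 0.0623 to 0.102). The nuclear receptor genes Ppara (-1.75 on the log2 scale) and Nr1h4 (-0.995) were lower under both scalings, and Foxo3 (-0.77), Foxo4 (-0.62) and Zkscan3 (-0.63) fell under TMM with no call under library totals.

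A further list held 14 genes for nutrient-sensing kinases, their other subunits and their regulators. Under TMM 7 fell (50%, where 18.7% of all tested genes fell) and 3 rose (21.4%, near the 19.5% of all genes). Under library totals 1 fell (7.14%) and 6 rose (42.9%), near the 5.85% and 46.3% of all genes. Subunits of AMPK, a kinase that activates ULK1, went both ways. Prkaa1, a catalytic subunit, had 26.0, 27.2 and 27.8 CPM in HepKO and 12.8, 16.8 and 14.0 CPM in WT (log2 fold change 0.89 ± 0.12, edgeR FDR 0.00131). Prkag2, a regulatory subunit, had 23.5, 22.8 and 23.0 CPM in HepKO and 49.2, 47.7 and 42.0 CPM in WT (-1.003 ± 0.10, FDR 3.26e-04). Both held under library totals. Rptor, the mTORC1 scaffold, had 24.9, 25.4 and 26.7 CPM in HepKO and 39.0, 40.1 and 42.6 CPM in WT (-0.66 ± 0.09, FDR 0.00115), without a call under library totals. Of the other called genes of this list, the AMPK subunits Prkab1 (0.47 on the log2 scale) and Prkab2 (0.89) were higher under both scalings. Prkab1 kept its call without any 1 library, while that of Prkab2 ended without WT replicate 1, WT replicate 3, HepKO replicate 2 or HepKO replicate 3 (FDR 0.0719 to 0.116). Deptor (-0.80), Tsc1 (-0.60), Tsc2 (-0.31), Rheb (-0.31) and Prkag1 (-0.38) fell under TMM with no call under library totals. The calls of Tsc2 and Rheb also ended with no filter, with the replicate block and in 4 of the 6 fits without 1 library each (FDR 0.0544 to 0.160 over both genes), and that of Prkag1 with DESeq2, RLE factors, the 1 CPM filter and in 5 of those 6 fits (FDR 0.0544 to 0.203). Genes annotated on the opposite strand share 43.7% of the exon bases of Prkag1 and 14.5% of those of Prkag2.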

How the data were processed

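The authors deposited raw counts for each gene, from polyA RNA libraries that per the labels were stranded. The submitters' processing notes name mm10, STAR 2.7.11a, bcl2fastq, featureCounts, Subread 2.0.0 and edgeR 3.40.2. The sources used here do not give the annotation release or strand setting, so overlapping and antisense genes could not be told apart. Symbols, positions and exon lengths came from GENCODE M21 (GRCm38, the assembly of mm10), which matched 55480 of 56350 IDs without version.

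Genes were filtered with filterByExpr and tested with the quasi-likelihood test of edgeR 4.0.16 (R 4.3.3), 2-sided, with TMM scaling and no covariate. CPM use TMM-scaled totals, with factors of 1.19 to 1.20 in HepKO and 0.824 to 0.860 in WT. The error printed with a log2 fold change is its SE, and with other values the SD. Libraries of 1 group differed beyond counting noise (26.6 to 131 chi-square per degree of freedom). Genes with fewer than 10 counts in every library were not measured. The naming rule accounted for every member, gave called members per library, and named called genes of the other lists. Members and lists were chosen with earlier results of these data known. Alternatives were DESeq2 1.42.0, limma-voom (limma 3.58.1), RLE factors, library totals, TMM without the 20 most abundant genes, 2 filters, a replicate block, an FDR of 0.01 and leaving out each library. The transcript length for LC3 shares was chosen after seeing the data.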

Additional observations from a re-analysis of the deposited data

How the results depend on the processing

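DESeq2, RLE factors and TMM without the 20 most abundant genes kept the direction and the call of 36 of 36 members. With library totals 15 members were higher and 4 lower, against 3 and 17 with TMM. By its construction that setting moves all folds up, and 15 members changed sign: Ulk1 (0.32), Atg13 (0.28), Ambra1 (0.032), Wipi2 (0.10), Atg2b (0.037), Vmp1 (0.34), Tmem41b (0.18), Atg4c (0.26), Atg7 (0.20), Atg16l1 (0.14), Map1lc3b (0.26), Gabarap (0.49), Gabarapl1 (0.027), Gabarapl2 (0.44) and Wdfy3 (0.15). At an FDR of 0.01, 3444 genes were called in all (10.9% of all tested genes higher and 10.5% lower), with 1 member higher and 10 lower. With at least 1 CPM in 3 libraries Gabarap was at 0.0026 on the log2 scale. Leaving out each library in turn gave 1 to 3 members higher, with 1 higher without WT replicate 1, WT replicate 3 or HepKO replicate 3, and 12 to 17 lower. Of all genes tested in the same fits, 13.9% to 16.7% were higher and 12.2% to 17.5% lower. In those fits uncalled genes near 0 changed sign, Wipi1 within -0.045 to 0.30, Atg4b within -0.087 to 0.076 and Gabarap within -0.10 to 0.025. The replicate numbers did not pair the libraries (correlation of deviations -0.14, -0.11 and 0.03 for numbers 1 to 3). With the replicate block 5071 genes were called (16% of all tested genes higher and 15.6% lower), with 2 members higher and 16 lower. The calls of Atg12 (FDR 0.0510) and Wdfy3 (FDR 0.0537) ended with the block. The 5 ratios whose groups were separate kept their sign without any 1 library, and paired sign flips (the replicate block) gave them the smallest p that exact test allows, 0.25. With 3 libraries per group and at most 41 counts, Vamp8 could show only large differences.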
